A study of Mus musculus with 6 samples.

Results

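Fatty acids are burned in the liver by beta-oxidation, and 36 genes of this pathway and of ketone body formation were examined in livers from mouse pups with (hSRY-ON) or without (hSRY-OFF) an activated human *SRY* transgene. The genes were listed by name from the pathway, and all array probes carrying these gene symbols were taken. A probe was present for 35 of the 36 genes, out of 18138 gene symbols in the table, and 63 probes belonged to them. *Hadha*, the alpha subunit of the mitochondrial trifunctional protein, had no probe under that symbol and was not analysed here.

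In beta-oxidation a fatty acid is first joined to coenzyme A and then shortened at its carboxyl end in repeated turns of oxidation, hydration, a second oxidation and thiolysis. Mitochondria burn short, medium and long chains after import by the carnitine shuttle, and peroxisomes shorten very long and branched chains and bile acid side chains. In the suckling period milk fat is the main fuel, and liver mitochondria turn much of the resulting acetyl-CoA into acetoacetate and beta-hydroxybutyrate, the ketone bodies, which leave the liver as fuel for brain and muscle.

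All pups were males of the FVB/N strain at postnatal day 6. The 3 hSRY-ON pups carried a single-copy *Signalox-hSRY* transgene inserted at the *H11* locus of chromosome 11. In these pups Cre recombinase brought into the egg from a *Ddx4-Cre* mother had removed a *DsRed2* cassette, so that the broadly active *CAG* promoter drove FLAG-tagged human *SRY* together with *EGFP*. The pups chosen as hSRY-ON did not themselves carry *Ddx4-Cre*. The 3 hSRY-OFF pups were the controls. The study uses this name for pups with the transgene not recombined, its account also names littermates without that transgene as controls, and the labels give only hSRY-OFF. The cross and litter of the hSRY-OFF pups were not given for the arrays, so differences in these cannot be told apart from the transgene. The study reports that hSRY-ON pups suckled little, lacked milk in their stomachs, grew slowly and had fatty livers. The milk intake of the array pups was not given, so feeding and growth cannot be told apart from the transgene either. The contrast also holds EGFP on, and DsRed2 off if the controls carried the transgene, and all hSRY-ON pups came from 1 transgene insertion. No probe for the human transgene was used here.

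RNA was measured on single-colour Illumina MouseRef-8 v2.0 bead arrays, 1 per pup. The arrays detected 40.2% to 41.9% of 25697 probes at a detection p under 0.01. Intensities were background-corrected, quantile-normalized and put on a log2 scale, and every value below is such a log2 intensity unless a fold is named. A probe was tested if at least 3 of the 6 arrays detected it, and it was called when limma's adjusted p was under 0.05. Values listed for a group follow replicates 1, 2 and 3. Ratios are between groups for 1 probe, since the levels of different probes are not comparable.

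Over all 10734 tested probes, 15.8% were called higher and 17.3% lower, and the small marker counts below stand beside these shares. Of hepatocyte markers, 0 of 12 tested probes were called higher and 4 (33.3%) were called lower. Their summed level was 18.06 to 18.08 in hSRY-OFF and 17.88 to 17.93 in hSRY-ON livers, and the fibrinogen chain *Fgb* was detected on 1 array. Erythroid markers had 2 of 7 tested probes called higher and 0 lower, with a summed level of 15.96 to 16.33 in hSRY-OFF and 16.30 to 16.50 in hSRY-ON livers. Stellate cell markers had 5 of 9 higher and 1 lower, from 11.49 to 11.77 in hSRY-OFF to 13.65 to 13.91 in hSRY-ON livers, where 4 of the 5 were probes of *Acta2*, smooth muscle actin. Endothelial markers had 3 of 7 higher and 0 lower (11.63 to 11.86 against 11.82 to 12.13). Macrophage markers had 1 of 13 higher and 3 lower (14.22 to 14.36 against 13.80 to 14.55), and of the 11 neutrophil probes 0 were called (15.51 to 15.72 against 14.95 to 16.60). The single tested biliary probe was not called, and 1 of 2 tested probes of exocrine pancreas was called higher. None of the 5 brown adipocyte and none of the 9 striated muscle marker probes was detected on any array. In pieces of whole liver, fewer cells of a type and less RNA per cell cannot be told apart, and the part of these shifts in the results below was not tested.

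Of the 63 probes, 51 from 32 genes were tested, while 11 were detected on 0 arrays and 1 on 1 array. No tested probe was available for *Acadsb*, a dehydrogenase of branched short chains, *Hadh*, the dehydrogenase of short 3-hydroxyacyl chains, or *Crot*, the peroxisomal carnitine octanoyltransferase. A probe listed under *Hadhsc*, an older name of *Hadh*, was not detected on any array either. Undetected probes say only that these probes gave no signal above the negative controls.

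The livers of hSRY-ON pups had lower signal for 7 of the 32 tested genes and higher signal for 3, and 22 genes had no called probe. Thus 10 of 32 genes had a called probe, and over the array 2960 of 8225 tested genes did, a similar share. The lower genes were the ketone body enzymes *Bdh1* and *Acat1*, the thiolases *Acaa2* and *Acaa1a*, the thiolase and sterol carrier *Scp2*, the dienoyl-CoA reductase *Decr1* and the acyl-CoA synthetase *Acsl5*. The higher genes were the thioesterase *Acot2*, the enoyl-CoA isomerase *Peci*, now named *Eci2*, and the synthetase *Acsl4*. Of these, the *Acot2* probe was tested only because the hSRY-ON arrays detected it, so its call is a description. A second *Acot2* probe differed by -0.08, and the counts below include the first. By probe, 3 of 51 (5.88%) were called higher against 15.8% of the 10734 probes tested on the array, and 12 of 51 (23.5%) were called lower against 17.3%. The 12 include 4 probes of *Acaa2* and 2 each of *Bdh1* and *Scp2*. All 3 hSRY-ON values lay below all 3 hSRY-OFF values in 22 of 51 probes (43.1%), against 24.6% of all tested probes, and above them in 5 of 51 (9.80%), against 25.4%. The count of probes called lower was 7, 6 and 6 without hSRY-OFF replicates 1, 2 and 3, and the count called higher was 5 without hSRY-ON replicate 2.

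The median difference, hSRY-ON minus hSRY-OFF, over the 51 probes was -0.20, with the middle 50% between -0.43 and 0.16. Over all tested probes it was 0.02, with the middle 50% between -0.33 and 0.35. A difference of more than 1 on the log2 scale was found at 6 of the 51 probes and at 1372 of all 10734, a similar share. The plot of differences by gene shows these 6 as *Acsl4*, *Acot2*, *Peci*, *Acaa1b* and both probes of *Bdh1*.

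**Figure D1:**
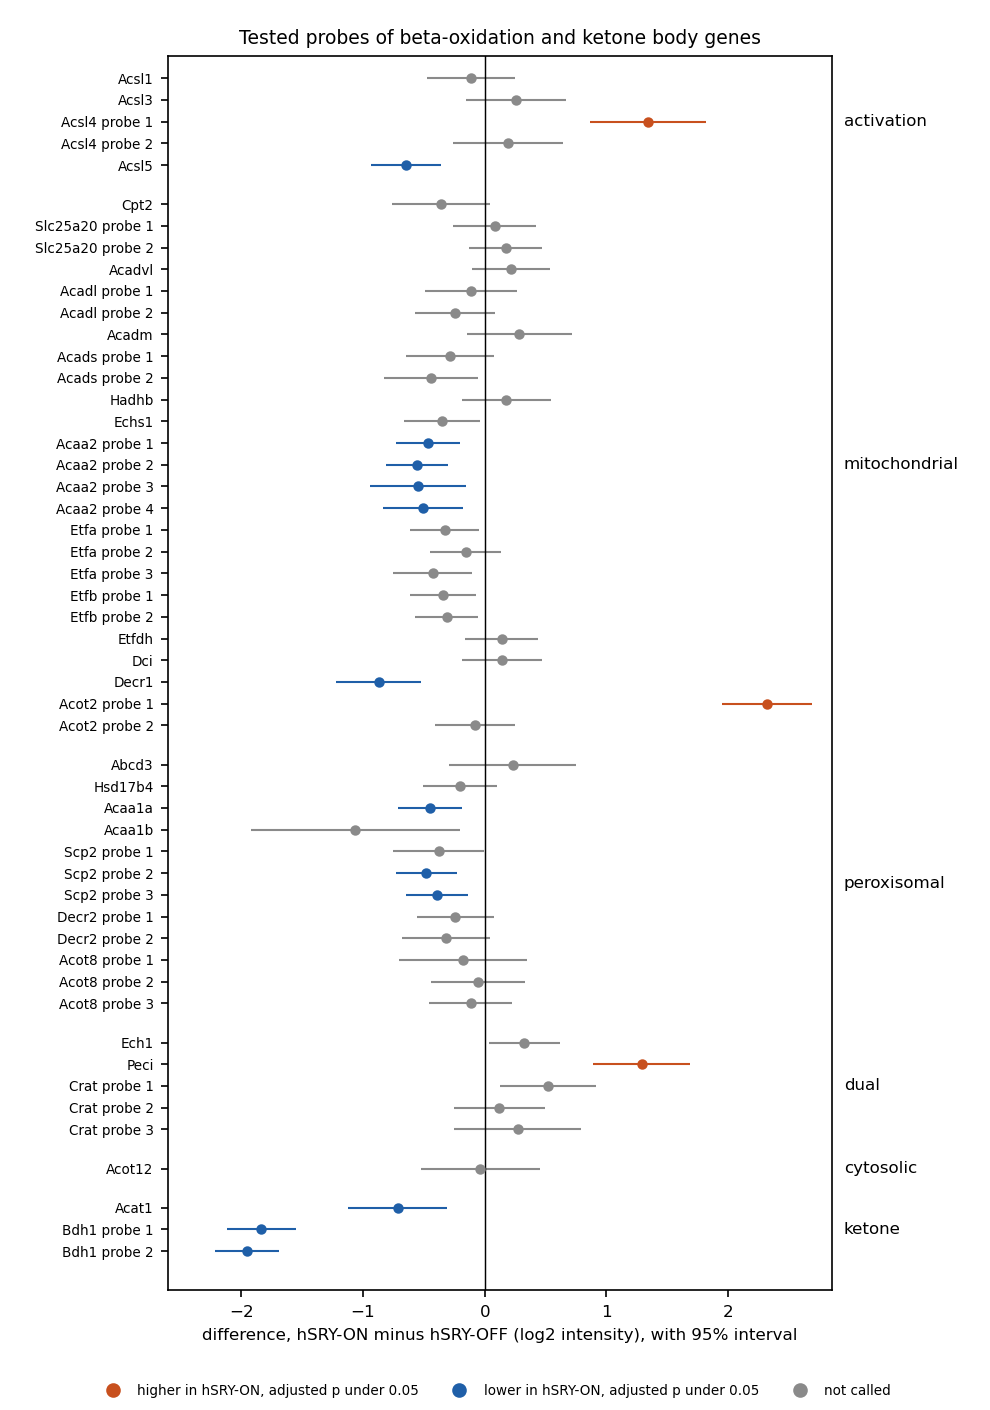
Difference between hSRY-ON and hSRY-OFF livers (log2 intensity, x axis) for the 51 tested probes of 32 genes (y axis), grouped by step, where points are the fitted differences and bars their 95% intervals from limma. Both *Bdh1* probes lie at -1.84 and -1.95 and the first *Acot2* probe at 2.32, and the middle 50% of the points lie between -0.43 and 0.16.

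By step, the 25 tested mitochondrial probes of 15 genes had a median of -0.28. Of these, 1 (4.0%) was called higher and 5 (20.0%) lower, against 15.8% and 17.3% of all tested probes. The lower probes were 4 of *Acaa2* and 1 of *Decr1*, and the higher one was the *Acot2* probe that the controls did not detect. The 12 peroxisomal probes of 7 genes had the same median of -0.28 with 0 higher and 3 lower. Without hSRY-ON replicate 3 the mitochondrial median was -0.15. Called lower were 3, 2 and 2 mitochondrial and 0, 1 and 1 peroxisomal probes without hSRY-OFF replicates 1, 2 and 3, 3 mitochondrial probes without hSRY-ON replicate 1 and 1 peroxisomal probe without hSRY-ON replicate 2. Other processing raised the mitochondrial count of 5 lower probes, to 10 without background correction or with a variance trend, 9 with normexp without control information or scaling by trimmed means, and 8 with an offset of 50. The 5 probes of *Ech1*, *Peci* and *Crat*, enzymes found in both organelles, had a median of 0.33 with 1 higher and 0 lower. The 3 ketone body probes, 2 of *Bdh1* and 1 of *Acat1*, were all called lower. Their median of -1.84 is the value of 1 *Bdh1* probe, while *Acat1* was at -0.72. The 5 activation probes had a median of 0.19 with 1 higher and 1 lower. Differences between the steps were not tested, because probes of 1 liver are not replicates.

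**Figure D2:**
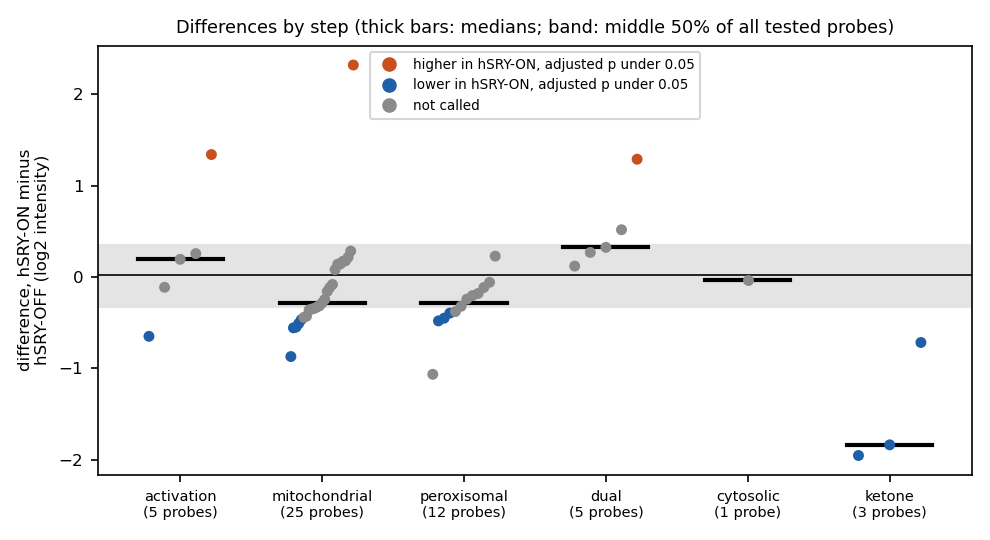
Differences between hSRY-ON and hSRY-OFF livers (log2 intensity, y axis) of the tested probes in each step (x axis), with a thick bar at each median. The grey band holds the middle 50% of all 10734 tested probes (-0.33 to 0.35) around their median of 0.02. The ketone body median of -1.84, which is the value of a *Bdh1* probe, lies below the band.

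Activation joins the fatty acid to coenzyme A outside the mitochondrial matrix. *Acsl4*, the synthetase that prefers arachidonic acid, read 7.16, 7.04 and 7.15 in hSRY-OFF and 8.22, 8.92 and 8.23 in hSRY-ON livers (probe ILMN_3136205). It was 2.53-fold higher (difference 1.34 ± 0.20, SE, limma adjusted p = 0.00321, n = 3 per group), with every hSRY-ON value above every hSRY-OFF value. A second, dimmer *Acsl4* probe (ILMN_1244872) gave signal on 1 control and 2 hSRY-ON arrays and differed by 0.19 ± 0.19 with an adjusted p of 0.470, and the remaining 2 probes were not tested. The rise of *Acsl4* therefore rests on 1 probe.

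*Acsl5*, a synthetase of the endoplasmic reticulum and outer mitochondrial membrane, went the other way. Its values were 13.74, 13.76 and 13.74 in hSRY-OFF and 13.08, 12.95 and 13.26 in hSRY-ON livers, 1.57-fold lower in the latter (difference -0.65 ± 0.12, adjusted p = 0.00748). The 3 controls lay close together and all hSRY-ON values lay below them. *Acsl1*, the main synthetase of liver, differed by -0.11 ± 0.15 (adjusted p = 0.606, 95% interval -0.47 to 0.25), and *Acsl3* by 0.26 ± 0.18 (adjusted p = 0.296).

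The carnitine shuttle carries long acyl chains through the inner mitochondrial membrane, and 0 of its 3 tested probes were called. *Cpt2*, which releases the chain from carnitine in the matrix, read 11.66, 11.60 and 11.91 in hSRY-OFF and 11.61, 11.07 and 11.40 in hSRY-ON livers. Its difference of -0.36 ± 0.17 did not pass the test (adjusted p = 0.146) and the groups overlapped. *Slc25a20*, the carnitine and acylcarnitine exchanger, differed by 0.08 and 0.17 at its 2 tested probes (adjusted p = 0.699 and 0.336).

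None of the 6 tested probes of the acyl-CoA dehydrogenases, which carry out the first oxidation at different chain lengths, was called. *Acadm*, the medium-chain enzyme, read 13.99, 14.05 and 13.93 in hSRY-OFF and 14.61, 14.30 and 13.91 in hSRY-ON livers. The difference of 0.28 ± 0.18 did not pass (adjusted p = 0.268), since hSRY-ON replicate 3 lay below all controls while the other 2 hSRY-ON arrays lay above them. Without hSRY-ON replicate 3 the difference was 0.46 and was called (adjusted p = 0.0395). *Acadvl*, the very-long-chain enzyme, differed by 0.22 and *Acadl*, the long-chain enzyme, by -0.11 and -0.25 at 2 probes, with overlapping groups. *Acads*, the short-chain enzyme, differed by -0.28 and -0.44 at 2 probes (adjusted p = 0.197 and 0.0780), and at both the hSRY-ON values lay below all controls without a call. Such a separation was seen at 24.6% of all tested probes.

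The later reactions of the spiral are hydration, a second oxidation and thiolysis, and the called probes of this step belonged to *Acaa2*. This gene encodes the mitochondrial thiolase that releases acetyl-CoA from the shortened chain. At the probe with the lowest adjusted p (ILMN_2704826) its values were 13.67, 13.73 and 13.69 in hSRY-OFF and 13.18, 13.18 and 13.06 in hSRY-ON livers, 1.47-fold lower in hSRY-ON (difference -0.56 ± 0.11, adjusted p = 0.00857). All 4 *Acaa2* probes were called lower, with differences of -0.47, -0.56, -0.55 and -0.51, and the groups overlapped at none of them. They read a single gene, and 24.6% of all tested probes had all hSRY-ON values below all controls.

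The *Acaa2* calls were not equally firm. Probe ILMN_2704826 was called under every alternative tried. Probe ILMN_2704823 lost its call when any hSRY-OFF array was left out (adjusted p from 0.0557 without replicate 3 to 0.0721 without replicate 2). Probe ILMN_2704822 lost it without each hSRY-OFF array (0.0541, 0.0906 and 0.0888 without replicates 1, 2 and 3), without hSRY-ON replicate 1 (0.0535) and without hSRY-ON replicate 3 (0.0501). Probe ILMN_2788984 lost it without hSRY-OFF replicate 2 (0.117) or 3 (0.120) and without hSRY-ON replicate 1 (0.0770), 2 (0.0580) or 3 (0.0793), as well as with no detection filter (0.0667) and with array weights (0.0788). The difference remained negative each time.

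*Echs1*, the short-chain enoyl-CoA hydratase, read 12.56, 12.53 and 12.50 in hSRY-OFF and 12.29, 12.28 and 11.95 in hSRY-ON livers, without overlap, and its difference of -0.35 ± 0.13 did not pass (adjusted p = 0.0819). *Hadhb*, the thiolase subunit of the trifunctional protein, differed by 0.18 ± 0.16 (adjusted p = 0.414). Its partner *Hadha* is the gene without a probe, and in the RefSeq table the starts of both genes lie 273 bases apart on opposite strands.

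The electron transfer flavoprotein, made of the *Etfa* and *Etfb* products, takes electrons from the dehydrogenases, and *Etfdh* passes them to ubiquinone. All 5 tested probes of *Etfa* and *Etfb* had a negative difference, between -0.16 and -0.43, and 0 were called (adjusted p from 0.0513 to 0.368). Calls depended on the processing, since 4 of the 5 were called lower under some of the 17 alternatives, *Etfa* ILMN_2800655 and *Etfb* ILMN_2627895 under 8 each, *Etfb* ILMN_3104414 under 6 and *Etfa* ILMN_2649966 under 3. At 4 of these 5 probes the hSRY-ON values lay below all controls, against 24.6% of all tested probes, and several of the probes read the same gene. *Etfdh* differed by 0.14 (adjusted p = 0.432).

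Unsaturated fatty acids need extra enzymes to move or remove their double bonds. *Decr1*, the mitochondrial 2,4-dienoyl-CoA reductase, read 9.33, 9.10 and 9.37 in hSRY-OFF and 8.37, 8.21 and 8.61 in hSRY-ON livers. It was 1.83-fold lower in hSRY-ON (difference -0.87 ± 0.15, adjusted p = 0.00504), all values below the controls, and it was called under every alternative tried. *Dci*, the mitochondrial enoyl-CoA isomerase now named *Eci1*, differed by 0.14 ± 0.14 (adjusted p = 0.471).

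**Figure D3:**
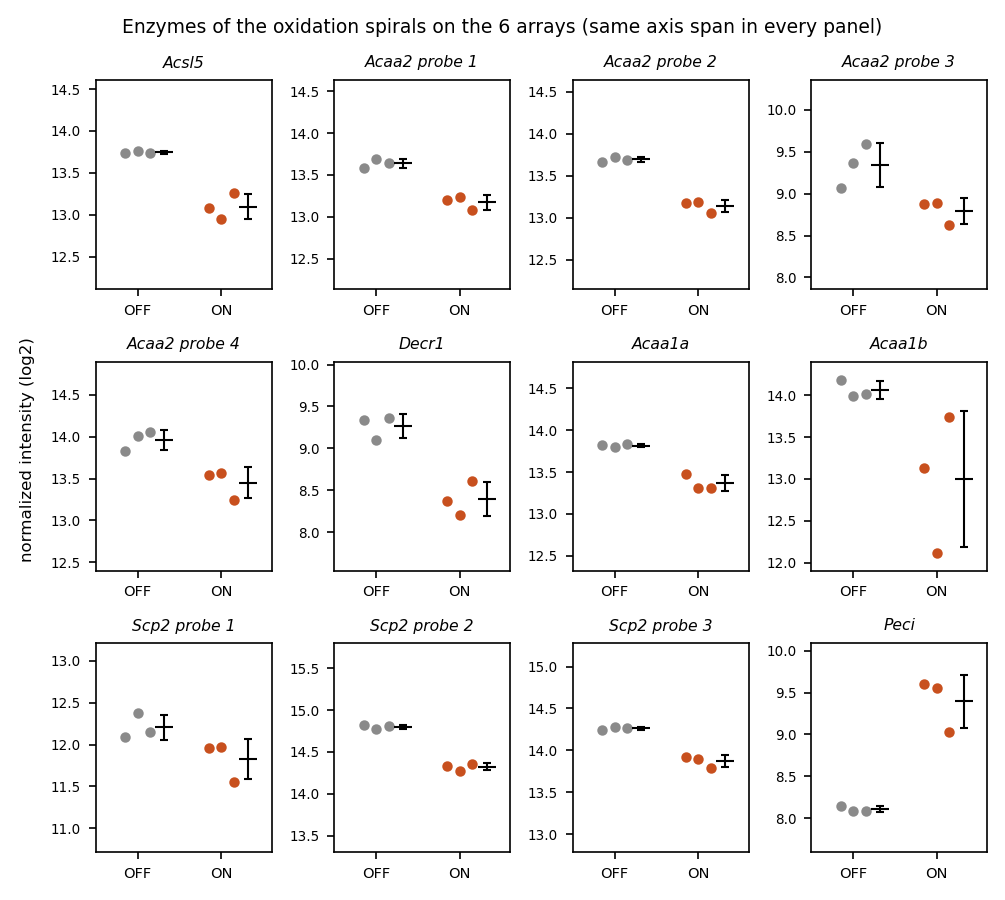
Normalized log2 intensity (y axis) on each of the 3 hSRY-OFF (grey) and 3 hSRY-ON (orange) arrays for 12 probes of the activation, mitochondrial, peroxisomal and shared enzymes, with bars for the mean and SD beside the points. The hSRY-ON values lie below the controls in 11 panels and above them for *Peci*, and those of *Acaa1b* spread from 12.12 to 13.74.

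Acyl-CoA thioesterases cut the coenzyme A off again and set the fatty acid free. *Acot2*, the thioesterase of the mitochondrial matrix, was undetected in the controls and detected on all 3 hSRY-ON arrays at probe ILMN_2745889, with values of 4.92, 5.40 and 4.97 against 7.51, 7.37 and 7.36. The level in hSRY-ON livers was at least 3.20-fold that of the controls, measured against the detection floor of the control arrays, with measured means of 5.10 and 7.42 and an adjusted p of 0.000155. It is the highest difference of the 51 probes, at a probe that was tested only because the hSRY-ON arrays detected it, so its call is a description.

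A second *Acot2* probe (ILMN_2840492), detected on 2 arrays of each group, differed by -0.08 ± 0.14 (adjusted p = 0.688), and the remaining probe was not detected on any array. The *Acot2* probes thus disagree. *Acot1*, the cytosolic paralog with nearly the same coding sequence, was 8.96- and 11.4-fold higher at its 2 probes (differences 3.16 and 3.51, adjusted p = 3.28e-05 for both). Its values at the first were 9.85, 9.59 and 9.94 in hSRY-OFF and 13.03, 13.02 and 12.83 in hSRY-ON livers. Probe sequences were not used here, so how far the *Acot2* probe also binds *Acot1* RNA was not tested, and the *Acot2* rise is uncertain.

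No probe of the other thioesterases among the 36 genes was called. *Acot8*, the broad thioesterase of peroxisomes, differed by -0.18, -0.06 and -0.11 at 3 probes, and *Acot12*, the cytosolic acetyl-CoA hydrolase of liver, by -0.04 ± 0.21 (95% interval -0.53 to 0.45), all with overlapping groups. *Acot4*, a peroxisomal thioesterase outside the 36 genes, was 3.41-fold lower, with values of 8.38, 8.38 and 8.10 in hSRY-OFF and 6.27, 6.01 and 7.27 in hSRY-ON livers (difference -1.77 ± 0.31, adjusted p = 0.00545).

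**Figure D4:**
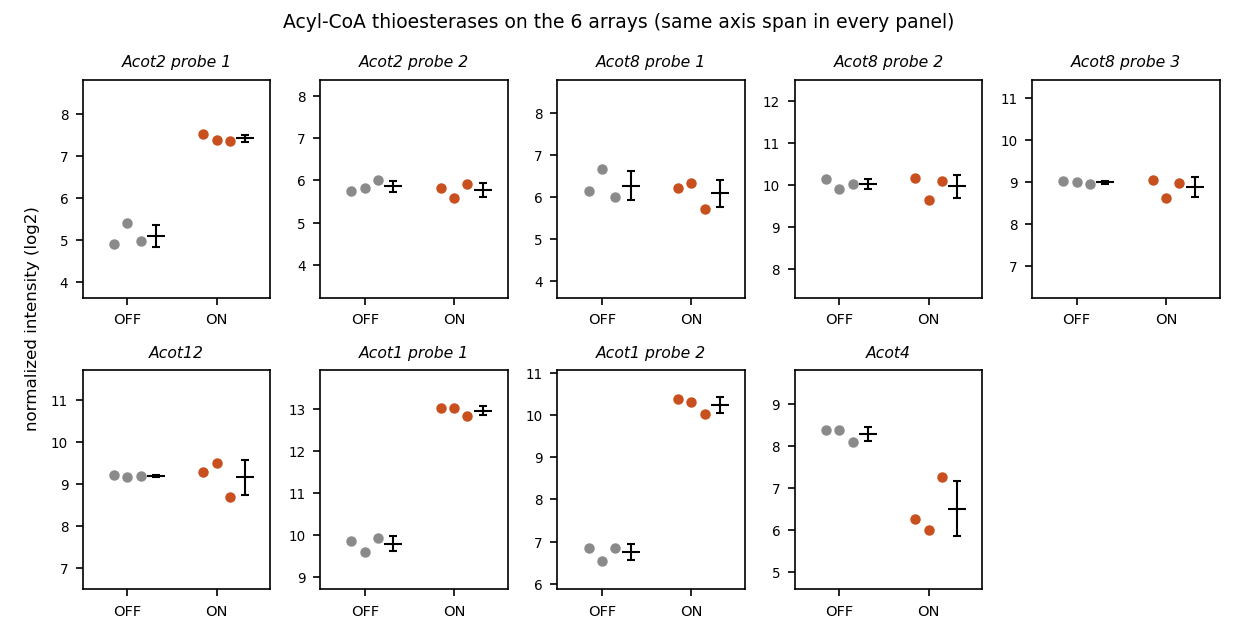
Normalized log2 intensity (y axis) of the tested probes of *Acot2*, *Acot8*, *Acot12*, *Acot1* and *Acot4* on the 3 hSRY-OFF (grey) and 3 hSRY-ON (orange) arrays. Bars beside the points give the mean and SD, and other acyl-CoA thioesterases on the array are not shown. Both *Acot1* probes and the first *Acot2* probe lie higher on all hSRY-ON arrays, *Acot4* lies lower, and the groups overlap for the second *Acot2* probe, *Acot8* and *Acot12*.

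Among the peroxisomal genes of the list, the called probes were those of *Acaa1a* and *Scp2*. *Acaa1a*, a peroxisomal thiolase, read 13.82, 13.80 and 13.83 in hSRY-OFF and 13.48, 13.31 and 13.31 in hSRY-ON livers, 1.37-fold lower (difference -0.45 ± 0.11, adjusted p = 0.0205). Its call was lost without hSRY-OFF replicate 1 (0.0748), 2 (0.0640) or 3 (0.0612) and without hSRY-ON replicate 2 (0.0535), with the difference still between -0.41 and -0.46.

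*Acaa1b* is the second, closely related peroxisomal thiolase gene, and its difference was larger but more scattered. It read 14.18, 13.99 and 14.01 in hSRY-OFF and 13.14, 12.12 and 13.74 in hSRY-ON livers. The groups did not overlap, yet the difference of -1.06 ± 0.37 missed the threshold (adjusted p = 0.0604). It was called under 7 of 17 alternatives, among them without hSRY-ON replicate 3 (difference -1.43, adjusted p = 0.00965). Cross-binding between the *Acaa1a* and *Acaa1b* probes was not tested.

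*Scp2* encodes both a thiolase for branched chains and the sterol carrier protein 2, and which of these its probes read was not tested. At probe ILMN_2705886 it read 14.83, 14.77 and 14.80 in hSRY-OFF and 14.33, 14.28 and 14.36 in hSRY-ON livers, 1.39-fold lower (difference -0.48 ± 0.11, adjusted p = 0.0135). A second probe (ILMN_2705881) was also called lower (difference -0.39, adjusted p = 0.0297), and the remaining tested probe (ILMN_1221684) differed by -0.38 with no call (adjusted p = 0.108). None of the 3 overlapped between the groups, though they read the same gene and 24.6% of all tested probes separated in this direction. The first call was lost without hSRY-OFF replicate 1 (0.0585), and the second without hSRY-OFF replicate 1 (0.0916), 2 (0.0912) or 3 (0.0772) and without hSRY-ON replicate 1 (0.0611) or 2 (0.0533), as well as with median scaling (0.0542).

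*Hsd17b4*, the bifunctional enzyme for branched and very long chains, read 12.88, 12.93 and 12.95 in hSRY-OFF and 12.92, 12.62 and 12.61 in hSRY-ON livers and was not called (difference -0.20 ± 0.13, adjusted p = 0.263). *Abcd3*, a transporter that brings acyl chains into peroxisomes, differed by 0.23 ± 0.22 (adjusted p = 0.458). Its hSRY-ON values of 12.93, 12.06 and 12.73 lay on both sides of the controls, and without hSRY-ON replicate 2 it was called higher (difference 0.49, adjusted p = 0.0382). *Decr2*, the peroxisomal dienoyl-CoA reductase, differed by -0.24 and -0.32 at 2 probes with no call.

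The enzymes found in both organelles all had positive differences. *Peci*, which shifts double bonds of unsaturated chains, read 8.15, 8.08 and 8.09 in hSRY-OFF and 9.60, 9.55 and 9.03 in hSRY-ON livers, 2.44-fold higher (difference 1.29 ± 0.17, adjusted p = 0.00188). No value overlapped, and the call held under every alternative tried. *Ech1*, the dienoyl-CoA isomerase, was at 12.96, 13.24 and 13.14 in hSRY-OFF and 13.42, 13.52 and 13.37 in hSRY-ON livers, without overlap, and did not pass (difference 0.33 ± 0.13, adjusted p = 0.0842). *Crat*, the carnitine acetyltransferase, differed by 0.52, 0.12 and 0.27 at 3 probes, of which the first, without overlap, had an adjusted p of 0.0514 and was called without hSRY-ON replicate 2 (difference 0.65, adjusted p = 0.0283).

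The lowest differences of the 51 probes were those of *Bdh1*. The gene encodes the mitochondrial dehydrogenase that turns acetoacetate into beta-hydroxybutyrate, the last step of ketone body formation. At probe ILMN_1231553 it read 12.94, 12.94 and 12.77 in hSRY-OFF and 11.09, 11.12 and 10.92 in hSRY-ON livers. It was 3.57-fold lower in hSRY-ON (difference -1.84 ± 0.12, 95% interval -2.12 to -1.55, adjusted p = 0.000151). The second probe (ILMN_2708928) read 11.08, 11.09 and 10.98 against 9.17, 9.04 and 9.09, 3.87-fold lower (difference -1.95 ± 0.11, adjusted p = 0.000100). The 3 hSRY-ON values lay far below the 3 controls at both probes, and both were called under every alternative tried.

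*Acat1*, the mitochondrial acetoacetyl-CoA thiolase that joins acetyl-CoA units at the start of the pathway, was called lower as well. It read 8.41, 8.51 and 8.80 in hSRY-OFF and 7.57, 7.99 and 8.02 in hSRY-ON livers, 1.64-fold lower (difference -0.72 ± 0.17, adjusted p = 0.0180). All hSRY-ON values lay below the controls, and the call was lost without hSRY-OFF replicate 2 (0.0520) or 3 (0.0588) and without hSRY-ON replicate 1 (0.0511).

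**Figure D5:**
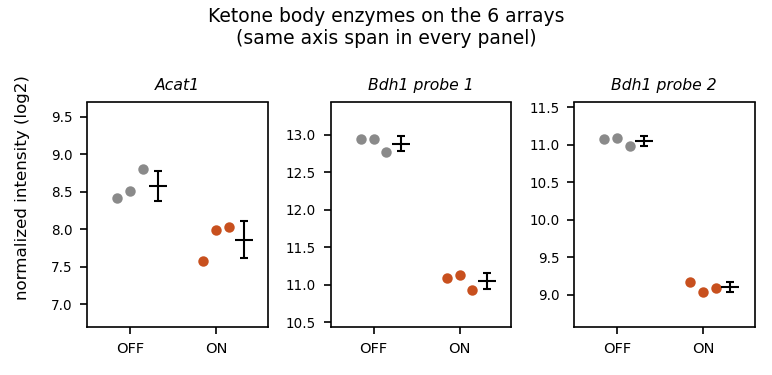
Normalized log2 intensity (y axis) of ketone body enzyme probes on the 3 hSRY-OFF (grey) and 3 hSRY-ON (orange) arrays, with bars for the mean and SD beside the points. The hSRY-ON values lie below the controls at both *Bdh1* probes and at *Acat1*.

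Promoter sequence is shown for *Bdh1*, *Scp2*, *Peci* and *Acot2*, which are 4 of the 7 called genes with a start in the RefSeq table (GRCm38.p6). Windows of 250 bases before the start were read for 31 of the 36 genes, 34 windows in all, and none was given for *Decr1*, *Acaa2*, *Hsd17b4*, *Crat* and *Acat1*. Letters were searched on both strands: AGGTCA, the half-site of nuclear receptors such as the peroxisome proliferator-activated receptor, and AACAAT and AACAAAG, letters that HMG box proteins of the SRY family are known to prefer. Capitals mark these matches in the sequences, which run 5′ to 3′ on the strand of the gene and end at the base before the start. They are, in order, *Bdh1* first start (chr16:31422047-31422296, plus strand), *Bdh1* second start (chr16:31428503-31428752, plus), *Scp2* (chr4:108118548-108118797, minus), *Peci* (chr13:34994145-34994394, minus) and *Acot2* (chr12:83987611-83987860, plus).
Bdh1 first start: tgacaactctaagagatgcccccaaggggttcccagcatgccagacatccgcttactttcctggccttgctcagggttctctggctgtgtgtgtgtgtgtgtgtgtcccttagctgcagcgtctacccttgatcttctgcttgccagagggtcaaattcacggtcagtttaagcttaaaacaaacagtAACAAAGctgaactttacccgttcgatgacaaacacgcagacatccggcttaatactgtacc
Bdh1 second start: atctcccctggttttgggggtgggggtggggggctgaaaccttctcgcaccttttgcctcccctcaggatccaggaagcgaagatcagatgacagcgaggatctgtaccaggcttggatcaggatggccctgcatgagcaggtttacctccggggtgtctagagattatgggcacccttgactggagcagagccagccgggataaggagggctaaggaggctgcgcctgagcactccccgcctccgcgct
Scp2: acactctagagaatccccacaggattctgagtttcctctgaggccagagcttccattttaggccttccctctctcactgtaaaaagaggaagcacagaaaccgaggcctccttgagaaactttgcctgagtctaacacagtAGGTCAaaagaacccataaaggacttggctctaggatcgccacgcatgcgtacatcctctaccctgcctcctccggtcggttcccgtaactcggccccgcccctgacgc
Peci: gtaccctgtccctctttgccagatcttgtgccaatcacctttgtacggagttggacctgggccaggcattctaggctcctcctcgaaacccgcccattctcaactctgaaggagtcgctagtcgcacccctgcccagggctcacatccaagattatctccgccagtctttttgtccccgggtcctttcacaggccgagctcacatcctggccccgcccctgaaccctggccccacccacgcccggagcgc
Acot2: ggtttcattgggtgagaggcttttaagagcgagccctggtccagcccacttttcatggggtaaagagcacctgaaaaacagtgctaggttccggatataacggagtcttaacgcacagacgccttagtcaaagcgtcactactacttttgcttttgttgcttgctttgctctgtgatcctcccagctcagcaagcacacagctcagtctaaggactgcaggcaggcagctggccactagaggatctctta

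AACAAAG stood once in the first *Bdh1* window, beginning 62 bases before the start, and AGGTCA once in the *Scp2* window, beginning 109 bases before the start. The second *Bdh1* window and those of *Peci* and *Acot2* held none of these letters, nor did the windows of *Acsl4*, *Acsl5* and *Acaa1a*, the called genes whose sequence is not shown. AGGTCA was found in 5 of the 34 windows (14.7%), against 14.0% of 32851 windows of all genes in the table. AACAAT or AACAAAG was found in 2 of the 34 (5.88%), in *Bdh1* and *Acsl1*, against 13.8% of all windows. A direct repeat of AGGTCA with 1 base between the copies, allowing up to 2 mismatches, was found in 3 of 34 (8.82%), against 3.24% of all windows. The 3 windows were those of *Echs1*, *Etfa* and *Acot12*, none of which had a called probe. Such a repeat can itself contain AGGTCA. A match in these short windows is a run of letters and not a binding site.

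The hSRY-ON arrays were not alike over the pathway. Replicate 3 was the lowest of the 3 hSRY-ON arrays at 29 of 51 probes (56.9%), against 36.4% of all tested probes, and replicate 1 was the highest at 28 of 51 (54.9%), against 29.6%. Set against the control mean of each probe, the 25 mitochondrial probes had median deviations of -0.11, -0.23 and -0.32 on hSRY-ON replicates 1, 2 and 3, and the 12 peroxisomal probes of -0.14, -0.33 and -0.43. The 3 ketone body probes, 2 of them of *Bdh1*, had -1.79, -1.76 and -1.96. The median SD over the 51 probes was 0.20 among hSRY-ON and 0.10 among hSRY-OFF arrays, against 0.21 and 0.14 over all tested probes.

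Of 54 other genes of fatty acid oxidation and ketone metabolism, 49 were on the array and 54 probes of 38 genes were tested, of which 16 (29.6%) were called higher and 12 (22.2%) lower, against 15.8% and 17.3% of all tested probes. Without hSRY-OFF replicates 1 and 2 and hSRY-ON replicate 1 these counts were 10 and 6, 9 and 4, and 9 and 7. *Cpt1b*, the muscle form of the enzyme that loads acyl chains onto carnitine, was undetected in the controls and detected on all 3 hSRY-ON arrays at both probes. It was at least 6.53-fold higher at the first, with means of 4.68 and 8.45 and an adjusted p of 0.000162, and at least 10.0-fold higher at the second, with means of 4.94 and 9.06 and an adjusted p of 0.000151. Both *Cpt1b* probes, like that of *Acot2*, were tested only because the hSRY-ON arrays detected them, so their calls, among the 16 above, are a description. The liver form *Cpt1a* was detected on 0 of the 6 arrays at its probe, controls included, and was not tested. Its level in these livers, and any exchange between the forms, cannot be read from this probe.

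*Ehhadh*, the peroxisomal bifunctional enzyme for straight chains, read 5.96, 5.88 and 6.44 in hSRY-OFF and 7.08, 7.24 and 7.26 in hSRY-ON livers, 2.14-fold higher (difference 1.10 ± 0.17, adjusted p = 0.00360). *Acsm5*, a synthetase of medium chains, was 5.61-fold lower, at 9.06, 9.34 and 9.36 in hSRY-OFF and 6.67, 7.03 and 6.59 in hSRY-ON livers (difference -2.49 ± 0.16, adjusted p = 0.000150). Neither gene overlapped between the groups.

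Other mitochondrial and peroxisomal genes are given only beside the pathway. Subunits of the respiratory chain and ATP synthase, which use the electrons that beta-oxidation yields, had 9 of 55 tested probes (16.4%, near the 15.8% of all tested probes) called higher and 0 lower, with a median difference of 0.26. The citric acid cycle and pyruvate enzymes had 8 of 21 (38.1%) higher and 1 (4.76%) lower, with a median of 0.37. Peroxisome biogenesis genes and catalase had 2 of 21 (9.52%) higher and 4 (19.0%) lower, with a median of -0.10. Whether these groups differ from the beta-oxidation genes was not tested.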

How the data were processed

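The labels describe liver samples of 3 hSRY-ON and 3 hSRY-OFF mice, and the study's methods give male sex and Illumina MouseRef-8 arrays. The deposited values are linear bead intensities, not normalized by the authors, and detection p-values, the deposited rank of each probe against the negative controls. The study names TCC, a package for counts, which was not applied to intensities. Genome build and scanner settings were not given in the sources used here. Background was inferred from intensities and detection p-values and removed (nec of limma 3.58.1 with an offset of 16, in R 4.3.3). Quantile normalization came next, then log2. The offset shrinks differences of dim probes. A probe entered the test when 3 or more of the 6 arrays had a detection p below 0.01. Groups were compared with lmFit and eBayes without covariates, two-sided, with Benjamini-Hochberg adjustment over all 10734 tested probes (threshold 0.05). The number of arrays, 3 per group, limits the precision.

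The detection floor of an array was its lowest signal among detected probes. Where no array of the dimmer group detected a probe, "at least N-fold" was the mean of the brighter group over the dimmer group's mean of the higher of floor and signal. Summed levels of marker lists are log2 of the sum of linear values over tested probes. Values on every array are given for members with a called probe and for *Acadm*, *Cpt2*, *Acaa1b*, *Hsd17b4*, *Acat1* and *Bdh1*. Of other pathway genes *Cpt1a* and *Ehhadh* are named whatever their values, with the 4 called genes of largest difference; other genes that this rule names are not reported here. The members and lists were chosen with earlier results of these data known. The processing was tried on simulated data. In these, 60.3% of probes changed by 1 on the log2 scale were called, and 93.0% of those changed by 2. Of the calls, 4.72% were false. Smaller changes were not simulated, and far fewer probes were changed than were called in the data. A gene without a called probe may therefore still differ. Promoter windows were taken from RefSeq (GRCm38.p6), where 34 members were matched by current symbol and 2 by an older one. Alternatives covered background, offset, scaling, detection filter, variance model, array weights, a replicate block and leaving out each array.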

Additional observations from a re-analysis of the deposited data

How the results depend on the processing

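With each array left out in turn, the probes called over the whole array ranged from 893 (without hSRY-OFF replicate 1) to 1944 higher and from 1141 (also without hSRY-OFF replicate 1) to 2116 lower, with 975 and 1191 without hSRY-OFF replicate 2. Over the 51 beta-oxidation and ketone body probes the ranges were 3 to 5 higher and 6 to 12 lower, over the mitochondrial probes 1 to 2 and 2 to 5, over the peroxisomal probes 0 to 1 and 0 to 4, and over the other pathway genes 9 to 15 and 4 to 15. The medians ranged from -0.32 to -0.15 (mitochondrial) and from -0.35 to -0.19 (peroxisomal). Over the 51 probes, 5 were called higher without background correction, 5 with variance trend and robust fitting and 6 with array weights, and 7 were called lower with 1 probe per gene. Mitochondrial probes called higher were 0 when detection on all 6 arrays was required, which removes *Acot2*, and 2 with array weights. Mitochondrial probes called lower were 10 without background correction, 8 with an offset of 50, 9 with normexp without control information, 9 with scaling by trimmed means and 10 with variance trend. Peroxisomal probes called lower were 5 with scaling by trimmed means, and 1 was called higher with *Ech1* and *Peci* counted there. Of the ketone body, activation, shared and cytosolic probes, 4 were called higher without background correction, with variance trend and with array weights. Other pathway genes had 10 higher without a detection filter. The mitochondrial median was -0.16 with array weights and -0.20 with *Crat* added, and the peroxisomal median -0.17 with array weights. The cause of these shifts was not tested.

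Deviations of samples with the same replicate number had correlations of 0.02, 0.10 and 0.05, within the range of the other pairs (-0.17 to 0.13). With 3 arrays per group these values cannot show whether pups shared a litter or handling, and the labels name no pairs. With the replicate block, 1565 probes were called higher and 1645 lower over the array, 3 and 10 over the 51 probes and 3 mitochondrial probes lower. *Acaa2* ILMN_2788984 (adjusted p = 0.0765) and ILMN_2704822 (0.0601) and *Scp2* ILMN_2705881 (0.0667) were then not called, and *Acaa1b* was (0.0499), by limma.

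Differences of 10 uncalled member probes changed sign under some alternative. With each array left out in turn they ranged from -0.22 to 0.031 (*Acsl1*), -0.0064 to 0.31 (*Acsl4*, ILMN_1244872), -0.028 to 0.17 (*Slc25a20*), -0.21 to 0.048 (*Acadl*), -0.15 to 0.013 (*Acot2*, ILMN_2840492), -0.31 to 0.014, -0.15 to 0.10 and -0.20 to 0.020 (*Acot8*), -0.024 to 0.22 (*Crat*) and -0.21 to 0.20 (*Acot12*). With array weights *Acadl* was at 0.017 and *Acot12* at 0.048, and *Slc25a20* was at -0.096 with median scaling and -0.062 with scaling by trimmed means. Of 15 called probes 8 kept the call under every one of the 17 alternatives that tested them and 7 lost it under at least 1, and 11 of 36 uncalled probes gained a call under at least 1. Adding the probe under the older name *Hadhsc*, an alternative chosen after seeing the data, changed no count.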
